A study of Mus musculus with 6 samples.

Results

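The MuRF proteins are a small family of muscle ubiquitin ligases, and their genes TRIM54, TRIM55 and TRIM63 are described here in mouse muscle cells in which MyoD was silenced. The members were selected by gene symbol in the platform's annotation, and the rule itself uses no measured value. All 3 were on the array, with 1 probe in 2 spots each, which made 6 of 5376 spots and 3 of 1521 named genes. Each comparison set the MyoD-silenced clone MyoD(-)cl.A8 against C2C12 control cells at the same day of differentiation, on day 1, day 3 or day 6. C2C12 is a myoblast line from C3H mice that fuses into myotubes when serum is lowered. Both kinds of cell were grown with fetal bovine serum and then moved to medium with horse serum to differentiate. The clone carried a pcDNA 3.0 plasmid from which MyoD is transcribed in antisense and had been selected with G-418. Only 1 clone was used, so effects of the silencing and of that clone cannot be told apart.

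MuRF stands for muscle RING finger. A RING finger is the zinc-binding domain with which such ligases pass ubiquitin from a conjugating enzyme to a target protein, which can mark the target for the proteasome. TRIM63 encodes MuRF1, which binds titin near the M-band of the sarcomere and is widely used as a marker of muscle wasting. TRIM55 encodes MuRF2 and TRIM54 encodes MuRF3. Both associate with microtubules and with the sarcomere, and MuRF3 stabilises microtubules while myoblasts differentiate. The family members can bind each other through their coiled coils. MyoD, the factor silenced in the clone, switches on muscle genes by binding E-boxes, short DNA motifs of the form CANNTG.

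Stretches upstream of the mouse genes are shown because the study turned on a factor that binds E-boxes. Of the 3 members, 2 matched the RefSeq promoter table by symbol (build GRCm38.p6), and the 250 bases before each gene's start are given on the plus strand, with CANNTG matches in capitals.
Trim54, chr5:31116362-31116611: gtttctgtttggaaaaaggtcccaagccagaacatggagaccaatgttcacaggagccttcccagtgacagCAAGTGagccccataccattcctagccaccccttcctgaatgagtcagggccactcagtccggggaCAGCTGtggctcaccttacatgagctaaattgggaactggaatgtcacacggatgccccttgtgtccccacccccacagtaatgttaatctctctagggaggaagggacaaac
Trim63, chr4:134314870-134315119: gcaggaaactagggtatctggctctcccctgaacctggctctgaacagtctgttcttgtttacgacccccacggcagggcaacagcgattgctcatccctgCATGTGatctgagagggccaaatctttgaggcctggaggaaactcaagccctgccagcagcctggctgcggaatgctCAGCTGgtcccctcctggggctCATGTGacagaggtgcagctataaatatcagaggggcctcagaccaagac
The Trim54 stretch held 2 matches, CAAGTG beginning 179 bases before the start and CAGCTG beginning 113 bases before it. The Trim63 stretch held 3 matches, of which 1 was CAGCTG, 72 bases before the start, and both others were CATGTG. Of 32851 promoter windows of the same length, 66.2% held CANNTG on either strand and 13.0% held CAGCTG, which is one of the CANNTG forms and is counted in both shares. The letters CATTCC, the core of the MCAT motif bound by TEAD factors, matched at 2 places in the Trim54 stretch and at 1 place in the Trim63 stretch, reading both strands, and in 12.6% of all windows. The letters TATAAA matched at 1 place in the Trim63 stretch, 31 bases before the start, and in 12.4% of all windows. A match is a description of the letters and not a binding site.

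Replicates A and B of a day were 2 arrays in which clone and control had swapped dyes. They compared the same kinds of RNA and counted as 1 replicate, so a day alone had n = 1 and the shared change over the days had n = 3. The deposited values are scores per spot of the clone against control, with scale, centring and direction not stated. Positive scores are read as higher in the clone, a direction that is likely because the labels name the clone as test and control cells as reference. No fold changes are given. Scores were averaged over the 2 spots of a probe and over the probes of a gene, and each array was centred on the median of its 2466 features. Array SDs over the features ran from 1.07 to 1.28 units. Across features, correlations ran from 0.16 to 0.21 within a day and between days from -0.08 to 0.12. MYOD1 itself scored 0.41 and -0.36 on day 1, 1.11 and -1.03 on day 3, and 0.50 and 0.26 on day 6 (replicates A and B), and since the construct is transcribed from MyoD sequence these scores do not check the silencing. The scores carry no brightness, so how far a spot stood above background is not known, and precision is limited by having 6 arrays. The probes were made for human genes, and cross-binding of mouse RNA from related genes was not tested. Fewer differentiated cells in a culture and less RNA per cell cannot be told apart in such samples.

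TRIM54 was higher in the clone on day 3 and near the array median on day 1 and day 6. Its centred scores were 3.28 on replicate A and 3.48 on replicate B of day 3, which gave a day mean of 3.38 units. On day 1 they were 0.60 and -0.19 (mean 0.20), and on day 6 they were 0.53 and -0.12 (mean 0.21). Both day 3 arrays lay above all 4 arrays of the other days, and those 4 did not separate by day. All 4 spots of TRIM54 on day 3 lay in a narrow band, with deposited scores of 3.21 and 3.34 on replicate A and 3.62 and 3.41 on replicate B. The 2 spots differed by 0.13 and 0.20 units there, against median differences between the duplicate spots of a probe of 0.88 and 1.06 units on these arrays. On day 1 replicate B and day 6 replicate A the spots of TRIM54 lay further apart, by 1.57 and 1.64 units, with a spot on either side of 0. None of these differences, medians included, was corrected for the higher medians of odd-numbered spots. On day 3 odd and even spots had medians of 0.21 and -0.18 on replicate A, and 0.43 and -0.35 on replicate B. With odd or even spots centred alone, the day 3 mean of TRIM54 was 3.08 or 3.64 units.

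**Figure D1:**
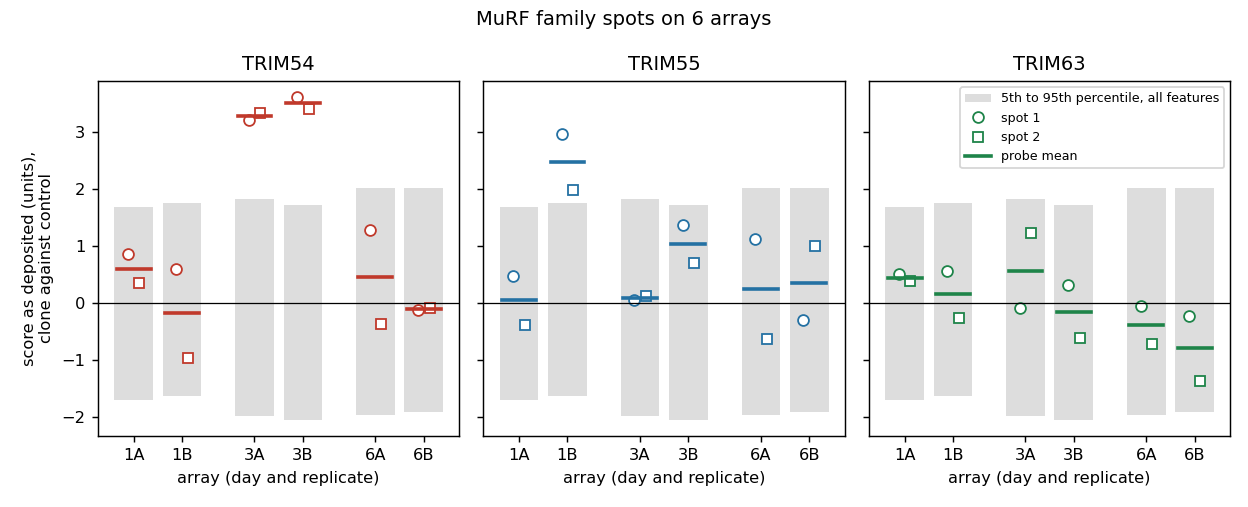
Scores as deposited (vertical axis, units, clone against control) for the 2 spots of TRIM54, TRIM55 and TRIM63 on each array (horizontal axis, day and replicate), with the probe mean as a bar and the 5 to 95% range of the centred scores of all features in grey. TRIM54 stood outside the grey range on both day 3 arrays, TRIM55 on the day 1 replicate B, and TRIM63 on none of the 6 arrays.

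With the dyes exchanged, the arrays of day 3 gave TRIM54 scores 0.20 units apart, against a median of 0.97 units over all features. By its score TRIM54 ranked 29 of 2466 features from the top on replicate A and 9 on replicate B. Its day 3 mean ranked 4 of all features and 3 of the 1521 genes from the top. By size in either direction, which does not depend on how the sign is read, it ranked 11 of all features. On day 1 the mean ranked 980 and on day 6 it ranked 994, both within the middle of the features. TRIM54 was among the features at least 2 units above 0 on both day 3 arrays, which were 0.446% of all features (11, while 20 lay at least 2 units below 0 on both). TRIM55 and TRIM63 were not on any day, and on day 1 and day 6 such features were 0.527% and 0.689% of all.

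In limma, with a coefficient per day over the 6 arrays, TRIM54 had a day 3 value of 3.38 with a standard error of 0.63 and an adjusted p = 0.0266 by limma (Benjamini-Hochberg over 2466 features, two-sided). The 95% interval ran from 2.04 to 4.71 units. In that fit 0.324% of features were called on day 3, and 0.0811% were called as higher in the clone, against 9.57% at an unadjusted p under 0.05. The error behind this p comes from arrays of the same day, not from separate cultures. The call ended with a dye term added (limma's adjusted p = 0.0911, with 0.162% of features called), and with spots of odd number alone (0.208) or even number alone (0.0792). It also ended without replicate A or replicate B of day 3, at values of 3.48 and 3.28 units, and without either array of day 1. The value stayed between 3.08 and 3.64 units under all 15 alternatives. That value is the mean of the 2 day 3 arrays. Settings that change only the error or the adjustment, such as a dye term, could therefore not move it. Nor could leaving out an array of another day.

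**Figure D2:**
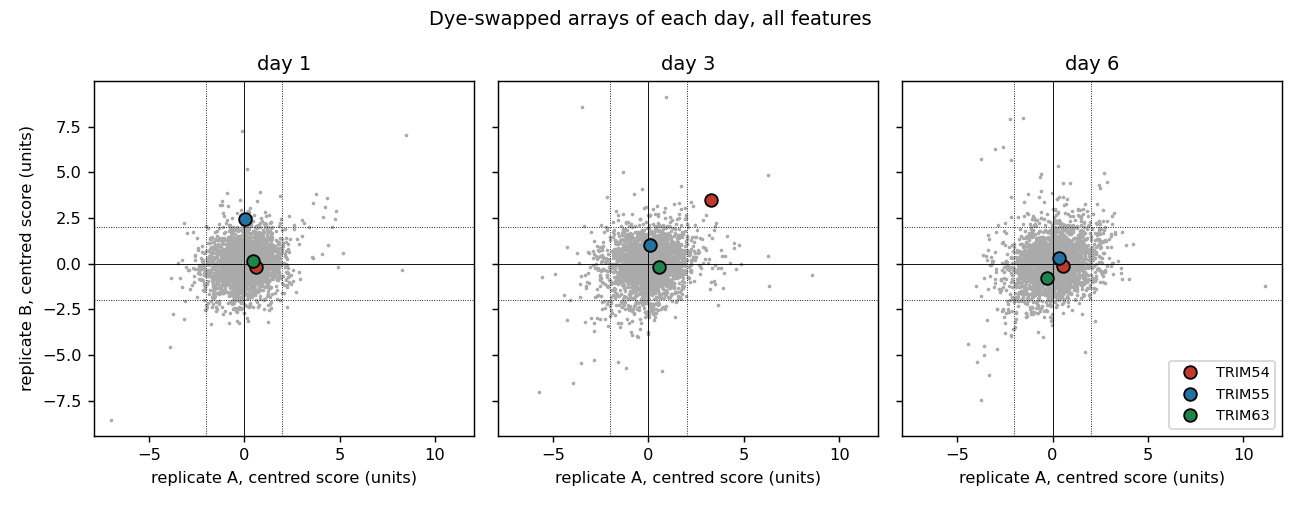
Centred scores of all 2466 features on replicate A (horizontal axis, units) and replicate B (vertical axis, units) of each day, as grey points, with the 3 MuRF genes as coloured points and dotted lines at 2 units from 0. TRIM54 lies beyond 2 units on both arrays of day 3, at 3.28 and 3.48, and TRIM55 on replicate B of day 1 alone, at 2.46.

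Probes near TRIM54 in spot number were examined for a rise in scores. The printing layout is not known here, so these probes need not lie near it on the slide, and a local artefact was not tested. Among the 20 probes within 10 places of TRIM54 in spot number, 0 were at least 2 units above 0 on both day 3 arrays, against 0.446% of all features. With so small a share, a count of 0 among 20 probes tells little. Of the 10 probes before it, 9 had a day 3 mean above 0, as did 5 of the 10 after it, against 1233 of 2466 features. The neighbours' day 3 means ran from -1.27 units to 2.18 units for MTFR1L, which stood at 1.91 and 2.46 on replicates A and B, and COQ8A stood at -0.73 and 3.84. The median of 10 neighbouring probes was 0.38 on replicate A and 0.01 on replicate B of day 3. These 10 were taken at every other place within 10 on either side, which leaves out the directly adjacent probes and COQ8A. With that median subtracted from each probe, TRIM54 stood at 3.18 units (limma's adjusted p = 0.0160). That setting called 19 of 2466 features on day 3, against 8 in the main fit. Spots of odd number had higher medians than spots of even number on all 6 arrays, from 0.21 to 0.44 units against -0.47 to -0.18 units. Each probe's mean takes an odd and an even spot, and whether the offset is of equal size for all probes was not tested.

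**Figure D3:**
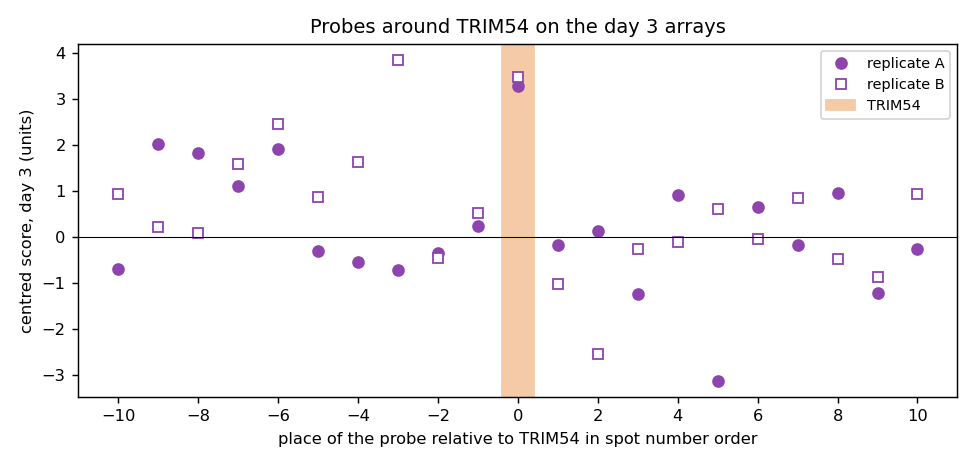
Centred day 3 scores (vertical axis, units) of TRIM54, on the shaded place 0, and of the 20 probes nearest to it in spot number (horizontal axis, places) on replicate A (filled circles) and replicate B (open squares). TRIM54 stands at 3.28 and 3.48, and none of the 20 neighbours reaches 2 units on both arrays, which 0.446% of all features do.

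The difference of TRIM54 between the days did not pass. From day 1 to day 3 its score moved by 3.17 units with a standard error of 0.89 and a 95% interval of 1.29 to 5.06 (limma's adjusted p = 0.448, unadjusted p = 0.00273). From day 3 to day 6 it moved by -3.17 units, with an interval of -5.06 to -1.28 (limma's adjusted p = 0.234, unadjusted p = 0.00275). These contrasts called 0.162% and 0.0406% of features. Between day 1 and day 6 TRIM54 moved by 0.00325 units, with an interval of -1.89 to 1.89 (limma's adjusted p = 0.999, with 0.365% of features called). Over the 3 days its mean was 1.26 ± 1.83 units (SD, n = 3 days), which did not pass limma's test of a shared change (adjusted p = 0.674, unadjusted p = 0.0371). That test called 0.365% of features, and 6.65% had an unadjusted p under 0.05. That mean rested on day 3: it was 0.20 units without day 3, 1.79 without day 1 and 1.79 without day 6.

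TRIM55, the MuRF2 gene, scored above 0 on all 6 arrays but passed on no day. Its scores were 0.05 on replicate A and 2.46 on replicate B of day 1, which gave a mean of 1.26 units. They were 0.09 and 1.01 on day 3 (mean 0.55), and 0.32 and 0.34 on day 6 (mean 0.33). The replicate B of day 1 was the high array, with both spots up at deposited scores of 2.98 and 1.98, and the other 5 arrays overlapped between days. Its 2 arrays of day 1 lay 2.42 units apart, against a median of 0.88 units over all features, and its arrays of day 6 lay 0.02 units apart. These are means of spots that lay on either side of 0 on day 1 replicate A (0.48 and -0.38) and on day 6. The day 6 spots stood at 1.13 and -0.63 on replicate A and at -0.29 and 1.00 on replicate B. They differed by 1.76 and 1.29 units, against medians of 1.02 and 0.82 over all probes.

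Of all features, 2.64% scored above 0 on 6 of 6 arrays. TRIM55 lay above the median of its 10 neighbouring probes on 3 of the 6 arrays. Its day 1 value had a 95% interval of -0.23 to 2.74 units in the 6-array fit (limma's adjusted p = 0.811, with 0.243% of features called). The adjusted p in limma was 0.899 on day 3, with an interval of -0.94 to 2.04 units, and 0.911 on day 6, with an interval of -1.16 to 1.81 units. On day 6 the fit called 0.284% of features. The shared change of TRIM55 was 0.71 ± 0.48 units (SD, n = 3 days; limma's adjusted p = 0.821), with an interval of -0.22 to 1.64. It was 0.31 units without replicate B of day 1, 1.11 without replicate A of day 1, and 0.44 without day 1 altogether. No difference of TRIM55 between days passed (limma's adjusted p from 0.824 to 0.969).

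TRIM63, the MuRF1 gene, stayed within 1 unit of 0 on every array. Its scores were 0.45 and 0.14 on day 1 (mean 0.29), 0.57 and -0.18 on day 3 (mean 0.20), and -0.31 and -0.80 on day 6 (mean -0.56). Both arrays of day 6 were the lowest of the 6, and those of day 1 and day 3 overlapped. Over the 6 arrays its range of 1.38 units exceeded that of 7.42% of all features. TRIM54 spanned 3.67 units, more than 82.3% of features, and TRIM55 spanned 2.42 units, more than 42.9%. TRIM63 passed on no day (limma's adjusted p of 0.970, 0.966 and 0.804 on days 1, 3 and 6), and the interval on day 3 was -1.13 to 1.53 units. Its shared change was -0.02 ± 0.47 units (SD, n = 3 days; limma's adjusted p = 0.996), with an interval of -0.95 to 0.90. From day 1 to day 6 it moved by -0.85 units (adjusted p = 0.811 in limma), with an interval of -2.73 to 1.03.

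The scores of the 3 genes were also set side by side array by array. On day 3, TRIM54 stood 3.18 and 2.47 units above TRIM55 on replicates A and B, and 2.70 and 3.66 units above TRIM63. On day 6, TRIM54 lay 0.21 units above TRIM55 on replicate A and 0.46 units below it on replicate B. Differences between members were not tested, because scores of different probes share no stated scale. Over the 6 arrays the scores of TRIM54 and TRIM55 correlated at -0.25, those of TRIM54 and TRIM63 at 0.37, and those of TRIM55 and TRIM63 at -0.01. These correlations describe 6 arrays in 3 dye-swapped pairs.

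The genes most like each member were taken by Pearson correlation over the 6 arrays among 1127 genes whose scores ranged over at least 2 units. Nearest to TRIM54 were PPP1R14B (0.959), an inhibitor of protein phosphatase 1, UBAC1 (0.949), a partner of a ubiquitin ligase of the KPC complex, AUP1 (0.941), a protein of lipid droplets and of protein quality control in the endoplasmic reticulum, CLSTN1 (0.931), a calsyntenin, and KLHL34 (0.922), a kelch protein. On day 3 PPP1R14B stood at 6.24 and 4.87, UBAC1 at 2.57 and 1.87, and AUP1 at 1.96 and 2.69 on replicates A and B, and on day 6 their means were -1.82, -0.60 and 0.19. Nearest to TRIM55 were DIAPH1 (0.969), a formin that nucleates actin, TXNDC12 (0.940), MRPS15 (0.919), CHTOP (0.907) and RXRA (0.907), and each had its highest score on the day 1 replicate B, from 1.68 for TXNDC12 to 5.17 for CHTOP. For TRIM63, compared with 1128 genes, the nearest were DDX56 (0.964), PRDX6 (0.945), HOXD9 (0.943), RPL9 (0.935) and EIF5A (0.931), whose day 6 means lay between -2.56 and -1.63 units. Correlations above 0.9 were reached by 7 of 1127 genes for TRIM54, 5 of 1127 for TRIM55 and 12 of 1128 for TRIM63. How many unrelated genes would reach 0.9 over only 6 arrays was not tested, so these genes are not shown to be regulated together. The arrays share spot layout and, within a day, cell types.

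Proteins reported as targets or partners of MuRF ligases include parts of the thick filament, the troponin complex, actin and creatine kinase, and 14 of 29 such genes had a probe. The scores are of RNA, so what a ligase does to these proteins was not measured. On day 3, 2 of the 14 scored above 0, with a median of -0.41 units, against a median of 0.000418 over all features, of which 1233 of 2466 were above 0. The lowest was MYH7, the slow myosin heavy chain, at -4.24 and -3.08 on replicates A and B, with a mean of -3.66 (limma's adjusted p = 0.0145, and 0.0682 with a dye term). It was the 1 gene of the list called on day 3, against 0.324% of all features. With a dye term 0 were called, against 0.162% of all features. MYH1, a fast myosin heavy chain, stood at -3.61 and -1.80 (mean -2.70), and MYBPC1, the slow myosin-binding protein C, at -2.79 and -1.83 (mean -2.31), neither of which passed (adjusted p = 0.164 for each in limma). The highest on that day was TNNI3, the cardiac troponin I, at a mean of 0.24 units.

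On day 1 these 14 genes had a median of -0.11 units with 5 above 0 (1256 of 2466 features). On day 6 their median was 0.22 units with 8 above 0 (1237 of 2466 features). Limma called 0 of them on either day, against 0.243% and 0.284% of all features. At an unadjusted p under 0.05 there were 2 of 14 on day 1, 3 on day 3 and 1 on day 6, against 6.16%, 9.57% and 11.1% of all features. By the mean over the 3 days the lowest were MYH7 (-1.23) and MYBPC1 (-0.84), and the highest were TNNI3 (0.25) and TNNT1 (0.17), the slow troponin T. TNNI2, the fast troponin I, stood at -1.80 on day 1 and 1.57 on day 6, and ACTA1, the skeletal actin, at -1.38 and 1.70 on those days, with 3.97 on the day 6 replicate B and -0.58 on replicate A.

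**Figure D4:**
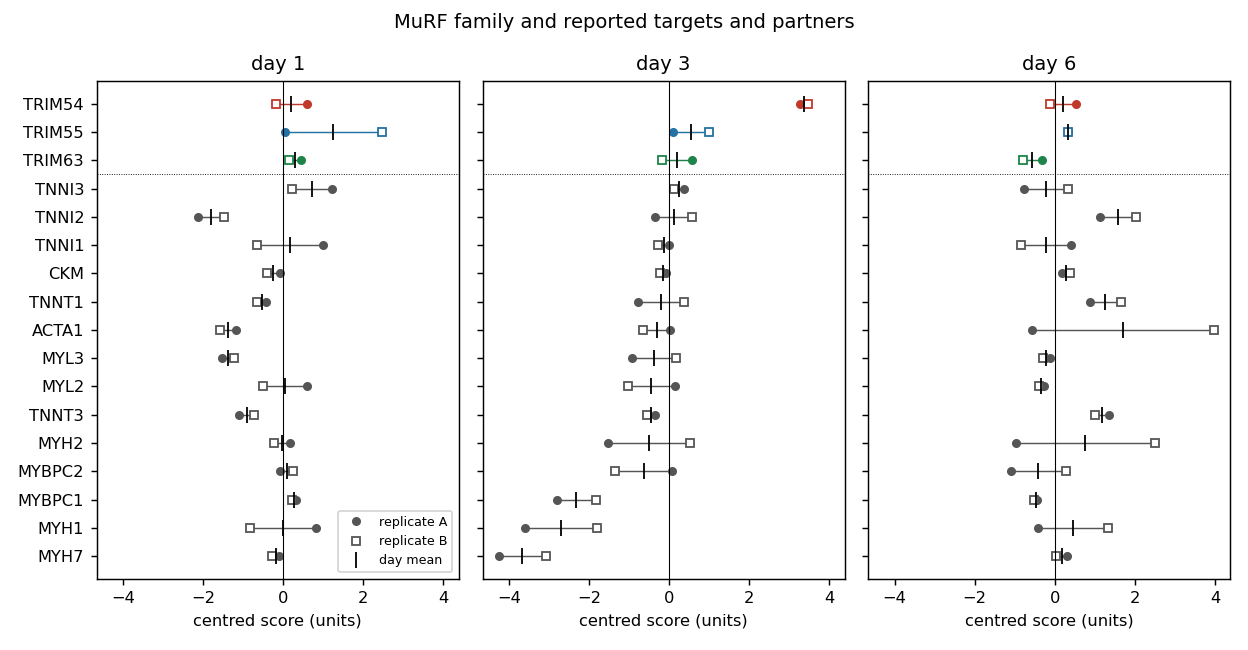
Centred scores (horizontal axis, units) of TRIM54, TRIM55 and TRIM63, above the dotted line, and of 14 reported targets and partners of MuRF ligases, ordered by their day 3 mean, on replicate A (filled circles), replicate B (open squares) and as day means (ticks). On day 3 TRIM54 stands at 3.38 and MYH7 at the other end at -3.66, while on day 1 and day 6 they stand at 0.20 and -0.19 and at 0.21 and 0.17 units. All scores are of RNA, and protein was not measured.

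Of 20 genes listed around titin, from the Z-disc to the M-band near which MuRF1 binds, 11 were measured. Of these, 6 had a mean over the days above 0 and 5 below, with a median of 0.06 units, against 0.00281 over all features. Limma called 0 on any day or for the shared change. Over all features it called 0.243%, 0.324% and 0.284% on days 1, 3 and 6, and 0.365% for the shared change. At an unadjusted p under 0.05 there were 1 of 11 on day 1, 2 on day 3, 1 on day 6 and 1 for the shared change, against 6.16%, 9.57%, 11.1% and 6.65% of all features. The lowest were LDB3 (-1.24), the Z-disc protein ZASP, and PDLIM5 (-0.71), and the highest were NEB (0.41), the thin filament ruler nebulin, and MYOM2 (0.21), an M-band protein. TCAP, which caps titin at the Z-disc, scored 1.44 and 1.33 on day 1, 1.36 and 1.12 on day 3, and -2.39 and -2.06 on day 6. It was the 1 gene of the list at least 2 units from 0 on both arrays of a day, being lower on day 6, where 1.14% of all features lay that far below 0, and it did not pass (limma's adjusted p = 0.175). SQSTM1, an autophagy receptor that binds MuRF proteins, averaged 0.06 units over the days, and MYOM1, the M-band myomesin, averaged -0.26.

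Other ubiquitin ligases of muscle and other TRIM genes had 0 calls in limma on any day. Calls over all features were 0.243%, 0.324% and 0.284% on days 1, 3 and 6. At an unadjusted p under 0.05 there was 1 gene on day 1, 0 on day 3 and 1 on day 6, against 6.16%, 9.57% and 11.1% of all features. Without the MuRF genes the list had 8 measured genes, with 3 means above 0 and 5 below and a median of -0.21 units. TRIM44 (0.54) and TRIM28 (0.45), a co-repressor of transcription, were highest, and KLHL40 (-0.49) and ASB2 (-0.27), substrate adaptors of cullin ligases, were lowest. KLHL41, another muscle adaptor, stood at -0.56, -1.31 and 2.17 units on days 1, 3 and 6. On day 3 the 3 other TRIM genes, TRIM44, TRIM28 and TRIM7, had means of 1.09, 0.35 and -0.21 units, below the 3.38 of TRIM54.

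Upstream and downstream of the ligases, 3 genes of ubiquitin and its conjugating enzymes were measured. UBB, a polyubiquitin gene, averaged 1.67 units over the days, with 5.18 on the day 1 replicate A and between 0.11 and 2.07 on the other arrays (limma's adjusted p = 0.188). The conjugating enzymes UBE2Z and UBE2G1 averaged -0.31 and -0.20. Limma called 0 of these 3 genes on any day. At an unadjusted p under 0.05 there were 1 on day 1, 0 on day 3, 0 on day 6 and 1 for the shared change. The shares over all features were 6.16%, 9.57%, 11.1% and 6.65%. Of 9 proteasome subunits, 5 had a mean above 0 and 4 below, with a median of 0.13 units. Limma called 0 of the 9 on any day, against 0.243%, 0.324% and 0.284% of all features on days 1, 3 and 6. At an unadjusted p under 0.05 there were 0 on day 1, 1 on day 3 and 0 on day 6, against 6.16%, 9.57% and 11.1% of all features. PSMD2 (0.62) and PSMC1 (0.33) were highest, and PSMC3 (-0.34) and PSMB10 (-0.21) lowest. On day 3 the median of the subunits was 0.51 units, with 6 of 9 above 0 against 1233 of 2466 features, and PSMC1 stood at 3.81 on replicate A and -0.25 on replicate B.

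Among 3 genes listed as deubiquitinases by symbol alone, without a check of their activity, USP24 scored above 0 on 6 of 6 arrays. It stood at 3.48 and 2.08 on day 3, with a mean over the days of 1.89 units (limma's adjusted p = 0.104). USP11 averaged 0.90 and USP39 -0.42 units. Limma called 0 of these 3 on any day. At an unadjusted p under 0.05 there were 0 on day 1, 2 on day 3, 1 on day 6 and 1 for the shared change. The shares over all features were 6.16%, 9.57%, 11.1% and 6.65%. USP24 was the 1 gene of the 3 at least 2 units above 0 on both day 3 arrays, against 0.446% of all features. Tubulins, the subunits of the microtubules that MuRF2 and MuRF3 bind, had 4 measured genes. On day 3 all 4 day means lay below 0, with a median of -0.49 units, while 1233 of 2466 features lay above 0. Replicates A and B of that day differed in sign for TUBB4B (-2.41 and 0.88), TUBA8 (-1.07 and 0.66) and TUBA4A (0.21 and -0.66). Both lay below 0 for TUBB alone (-1.94 and -0.09). TUBB4B stood at -2.52, -0.76 and 1.23 units on days 1, 3 and 6, and TUBB at 1.36, -1.02 and 1.00. By the mean over the days TUBB (0.45) and TUBA4A (-0.08) were the highest tubulins, and TUBB4B (-0.69) and TUBA8 (-0.59) the lowest. Limma called 0 of the 4 on any day, against 0.243%, 0.324% and 0.284% of all features on days 1, 3 and 6. At an unadjusted p under 0.05 there was 1 on day 1 and 0 on day 3 and day 6, against 6.16%, 9.57% and 11.1% of all features.

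Markers of muscle differentiation were read beside TRIM54. On day 3, 4 of 12 measured markers scored above 0, against 1233 of 2466 features, with a median of -0.18 units and scores per array between -4.24 and 1.56. All of these markers except TNNC2, TNNC1 and DES were counted above among the targets too, so both lists mostly hold the same genes. MYH7 was the 1 marker called that day, against 0.324% of all features, and it was not called with a dye term (limma's adjusted p = 0.0682). On day 6, 10 of 12 were above 0, against 1237 of 2466 features. Their median was 0.61 units, against 0.003413 over all, and TRIM54 stood at 0.21. Limma called 0 of the 12 on day 6, against 0.284% of all features. At an unadjusted p under 0.05 there was 1 of 12, against 11.1% of all features. Among the 10 above 0, replicates A and B of day 6 differed in sign for ACTA1, MYH2 and MYH1 alone. By the mean over the days the highest markers were DES (0.90), the muscle intermediate filament desmin, and TNNT1 (0.17), and the lowest were MYH7 (-1.23) and MYH1 (-0.75). Of 9 markers of fibroblasts, adipocytes and smooth muscle, 4 were measured, with day 3 means of -0.73 for TAGLN, 0.27 for FABP4, -1.56 for SCD and 0.12 for CNN1. Scores compare 2 RNAs and give no level, so the presence of a cell type was not checked, and its part in the TRIM54 score was not tested.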

How the data were processed

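RNA of the clone and of control cells was compared on 6 two-colour arrays. Per the labels' protocols, Trizol was used to extract RNA, and a MICROMAX kit with tyramide signal amplification to label it. The authors deposited 1 score per spot and array, and the filtering, background correction and normalization behind it are not given in the sources used here. There were 0 missing values. Spots of odd and following even number were averaged to 2688 probes, probes of a gene were averaged, and 2466 features were centred on each array's median. Symbols are those of the platform annotation. Tests were run with limma 3.58.1 in R 4.3.3 across all features: an intercept against 0 on the 3 day means, and day coefficients on the 6 arrays, with Benjamini-Hochberg adjustment and a threshold of 0.05. The robust prior used statmod 1.5.0. Scripts were checked on simulated data. Motifs and figures used Python 3.11.15 and matplotlib 3.10.9. P-values rest on the variation among these arrays alone, and that may be technical. The members were taken by symbol alone, but the choice of this family, the lists and the thresholds were made with earlier results of these data known. From each list the 2 highest and 2 lowest genes by mean are named, with those that passed. Other genes named within the lists (TNNI2, ACTA1, TCAP, SQSTM1, MYOM1, KLHL41, TRIM7 and the neighbouring probes) were chosen after their values were seen.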

Additional observations from a re-analysis of the deposited data

How the results depend on the processing

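Of 327 values of the 3 genes under alternatives, 295 kept their direction and their side of the threshold, 25 changed sign and 7 lost the call. The 7 were all of TRIM54 on day 3, which kept its call under 8 of 15 alternatives (limma's adjusted p from 0.0107 to 0.0268). With dye orientation as a replicate block its value stayed 3.38 by construction (limma's adjusted p = 0.0911) and the features called on day 3 numbered 4 in place of 8. Settings that change only the error, or leave out an array of another day, cannot move a day's value. Such values are counted above as keeping their direction, though that was not tested by them. The replicate letters showed no pairing, since deviations of replicate A from the day means correlated between days at -0.00184, -0.0120 and -0.0377. Over all features and these alternatives, calls numbered 0 to 11 on day 1 (6 as reported), 3 to 19 on day 3 (8), 0 to 23 on day 6 (7), 0 to 5 from day 1 to day 3 (4), 0 to 12 from day 3 to day 6 (1) and 0 to 28 from day 1 to day 6 (9). Odd spots gave TRIM54 3.08 and even spots 3.64.

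Sign changes touched values that passed nowhere, and their causes were not tested. TRIM54 from day 1 to day 6 was -0.0333 without centring, -0.0252 with scale normalization, -0.0109 with separate probes, -0.23 with odd spots and -0.28 with neighbours subtracted. With even spots TRIM54 on day 1 was -0.0195, and TRIM63 was 0.12 for the shared change and 0.22 from day 1 to day 3. With odd spots TRIM63 on day 3 was -0.22. With neighbours subtracted TRIM55 on day 6 was -0.15 and the shared change of TRIM63 0.17.

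With an array or a day left out, TRIM54 lay between -0.19 and 0.60 on day 1, 3.28 and 3.48 on day 3, -0.12 and 0.53 on day 6, and -0.39 and 0.40 from day 1 to day 6. TRIM55 moved between -1.92 and 0.50 from day 1 to day 3, -0.68 and 0.24 from day 3 to day 6, and -2.14 and 0.28 from day 1 to day 6, with the positive ends from day 1 reached without the day 1 replicate B. TRIM63 lay between -0.18 and 0.24 for the shared change (0.10 without the day 3 replicate B), -0.18 and 0.57 on day 3, and -0.47 and 0.28 from day 1 to day 3.

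Features past 1, 1.5 and 3 units on both arrays, in place of 2, numbered 177, 46 and 8 on day 1 (20 at 2 units), 204, 79 and 7 on day 3 (31), and 268, 113 and 7 on day 6 (45). TRIM54 on day 3 passed each of these thresholds. TRIM63 alternatives were chosen after the data were seen. The TRIM63 score did not pass under any of them, and the lone array left on a day was assumed to vary like the others.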
